A study of Mus musculus with 8 samples.

Results

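The genes described here are 9 methyltransferases that use S-adenosylmethionine (SAM) to methylate small molecules or lipids: Gamt, Pemt, As3mt, Tpmt, Hnmt, Inmt, Mettl7a1, Mettl7b and Coq5. They were chosen by enzyme class, not by a measured value, although earlier results of these data were known. All 9 were found by symbol among the 33212 genes of a liver RNA-seq count table. The table holds 8 libraries of total RNA from the livers of C57BL/6 mice, 4 from Nnmt KO mice and 4 from control mice. Nnmt KO mice carried Alb-Cre and Nnmt flox/flox, so that Nnmt was deleted in hepatocytes and the other liver cells kept it, and control mice were Nnmt flox/flox, which the sample labels call WT. All mice were male and ate a diet lacking methionine and choline (MCD diet) for 8 weeks, and their age is not given in the sources used here. No library came from mice on another diet, so the genotypes are compared only under MCD feeding.

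Each of these enzymes moves the methyl group of SAM onto its own substrate and leaves S-adenosylhomocysteine (SAH). Nnmt, which methylates nicotinamide, draws on the same SAM in hepatocytes, and the MCD diet limits the methionine from which SAM is made. The comparison addresses whether RNA of the other SAM-using enzymes differed when Nnmt was deleted from hepatocytes.

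The library totals ran from 75020072 to 87934362 counts, so 3 counts equalled 0.0341 to 0.04 CPM (counts scaled to a common library total), and all 9 genes were far above that level in every library. Levels are given as CPM after TMM scaling, which corrects for library composition. The table's columns name the genotype but no mouse, so libraries are lettered a to d in column order within each genotype. Nnmt KO library a stood apart, with a TMM factor of 1.21 against 0.876 to 1.06 in the other 7. It also had the lowest summed level of hepatocyte markers, 65100 CPM against 76500 to 118000 CPM elsewhere. Its sums of stellate markers, 827 CPM against 352 to 524 CPM, and of cholangiocyte markers, 279 CPM against 50.3 to 178 CPM, were the highest. These sums are TMM-scaled, so a high TMM factor lowers them, and sums with library size only were not computed. Alb, with a mean of 73000 CPM in control livers, made up most of the hepatocyte sum. Spp1, with a mean of 71.7 CPM in control livers, made up most of the cholangiocyte sum. Of the stellate markers, 3 of 8 were higher in Nnmt KO livers at an unadjusted edgeR p under 0.05, against 5.45% of all genes tested. So were 0 of 8 hepatocyte, 1 of 6 cholangiocyte, 1 of 6 lymphocyte, 0 of 8 macrophage and 0 of 6 endothelial markers. None in either direction passed an adjusted p of 0.05. The fitted change was above 0 for 8 of 8 stellate, 6 of 6 cholangiocyte and 6 of 6 lymphocyte markers. It was above 0 for 6 of 8 macrophage, 5 of 8 hepatocyte and 2 of 6 endothelial markers. The part of these cell markers in the results below was not tested.

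Nnmt itself checked the labels. Nnmt KO libraries a to d had 31.8, 44.8, 68.9 and 83 CPM, whereas control libraries a to d had 112, 224, 134 and 84.9 CPM. Every Nnmt KO library was below every control library, although Nnmt KO d and control d lay close together. The mean was 57.1 ± 23.1 CPM in Nnmt KO livers and 139 ± 60.5 CPM in control livers (SD, n = 4 each). On the log2 scale the difference was −1.28 (SE 0.33, 95% interval −2.01 to −0.55). The exact permutation test gave p = 0.0286, the smallest that 4 against 4 libraries allow. The edgeR quasi-likelihood test gave an adjusted p of 0.123 over all 15291 genes tested, and the DESeq2 Wald test 0.00458. The counts that remained in Nnmt KO livers were 41.2% of the control mean.

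None of the 9 methyltransferases passed an adjusted p of 0.05 by edgeR, a threshold that 0.32% of all genes tested passed, or by DESeq2, where 3.56% passed. Gamt was the 1 member of 9 that was lower in Nnmt KO livers with an unadjusted p under 0.05, against 7.13% of all genes tested, and 0 of 9 were higher, against 5.45%, or 12.6% in either direction. The count of lower members was 2 with library size only, with DESeq2 or without control d, and Mettl7b was the second each time. In these fits 1438 of 15291, 2178 of 15285 and 2178 of 15534 genes passed that p in either direction. In none of the 9 did the Nnmt KO libraries separate from the control libraries, as they did in 8.16% of all genes tested. The fitted change was below 0 for 6 of the 9 and above 0 for 3, with a median log2 fold change of −0.18, while 47.7% of all genes tested were below 0 with a median of 0.02. All 9 passed the filter on low counts, so these counts cover every member. In bulk liver RNA, fewer cells of a type and less RNA per cell cannot be told apart.

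**Figure D1:**
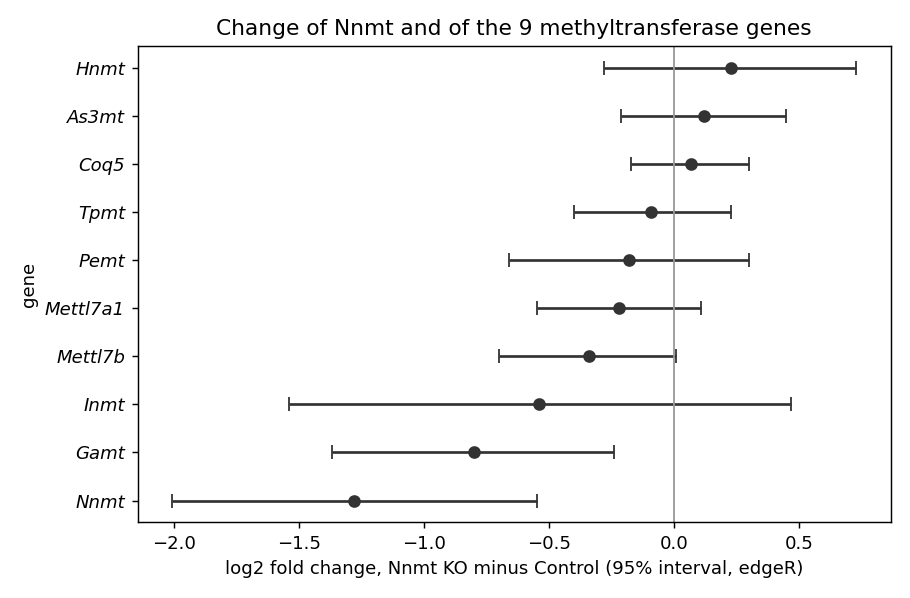
Log2 fold change, Nnmt KO minus control, of the 9 methyltransferases and Nnmt (points) with 95% intervals (lines) from edgeR's quasi-likelihood fit of 4 against 4 libraries. The intervals of Gamt (−1.37 to −0.24) and Nnmt (−2.01 to −0.55) lie below 0, and those of the other 8 genes include 0.

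Gamt, which methylates guanidinoacetate in the last step of creatine synthesis, had the lowest fold change of the 9. Nnmt KO libraries a to d had 34.1, 79.3, 62.1 and 64.9 CPM, whereas control libraries a to d had 127, 128, 67.1 and 97.1 CPM. The groups overlapped only through control c, which was below Nnmt KO b, and Nnmt KO a was the lowest of all 8 libraries. The mean was 60.1 ± 18.9 CPM in Nnmt KO livers and 105 ± 29 CPM in control livers (SD, n = 4 each), so Nnmt KO livers held 57.3% of the control level. The log2 fold change was −0.80 (SE 0.26, 95% interval −1.37 to −0.24), with an edgeR p of 0.00966 and an adjusted p of 0.218, and the exact permutation test gave p = 0.0571. Without Nnmt KO a it was −0.61, with an edgeR adjusted p of 0.225. The Gamt locus is chr10:80258151-80261012 (GRCm38, minus strand).

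The 250 bases before the start of Gamt (RefSeq, GRCm38.p6, chr10:80261013-80261262, minus strand) are shown because Gamt was the member with the lowest fold change. The capitals mark the GC box, GGGCGG, which was searched on both strands and is read here on the opposite strand.
Gamt: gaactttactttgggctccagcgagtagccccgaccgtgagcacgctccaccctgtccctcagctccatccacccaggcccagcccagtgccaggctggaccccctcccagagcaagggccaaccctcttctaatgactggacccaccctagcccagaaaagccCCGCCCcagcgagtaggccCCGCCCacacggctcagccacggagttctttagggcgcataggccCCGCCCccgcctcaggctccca
The window held 3 matches to the GC box, and its GC content was 66.8%. Of all 32851 mouse promoters of that length, 32.7% held at least 1 match, as did those of 2 of the 8 members that have an entry (Gamt and Tpmt).

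Of the other creatine genes listed, 5 of 7 were tested, and 1 was higher and 0 lower at an unadjusted p under 0.05, with a median log2 fold change of 0.18. That gene was Ckmt1, a mitochondrial creatine kinase at a low level, which had 0.77 ± 0.0449 CPM in Nnmt KO and 0.421 ± 0.12 CPM in control livers (log2 fold change 0.87, edgeR adjusted p = 0.317). Gatm, which makes the guanidinoacetate that Gamt methylates, had a log2 fold change of 0.22 with an edgeR adjusted p of 0.769. The 3 genes whose gene-centred log2 CPM lay nearest to that of Gamt over the 8 libraries were Prodh2, Tmem25 and Aspdh. Their mean absolute difference was 0.12, 0.15 and 0.16, where the median over all genes was 0.53. Being picked as the nearest, they lie below that median by construction.

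**Figure D2:**
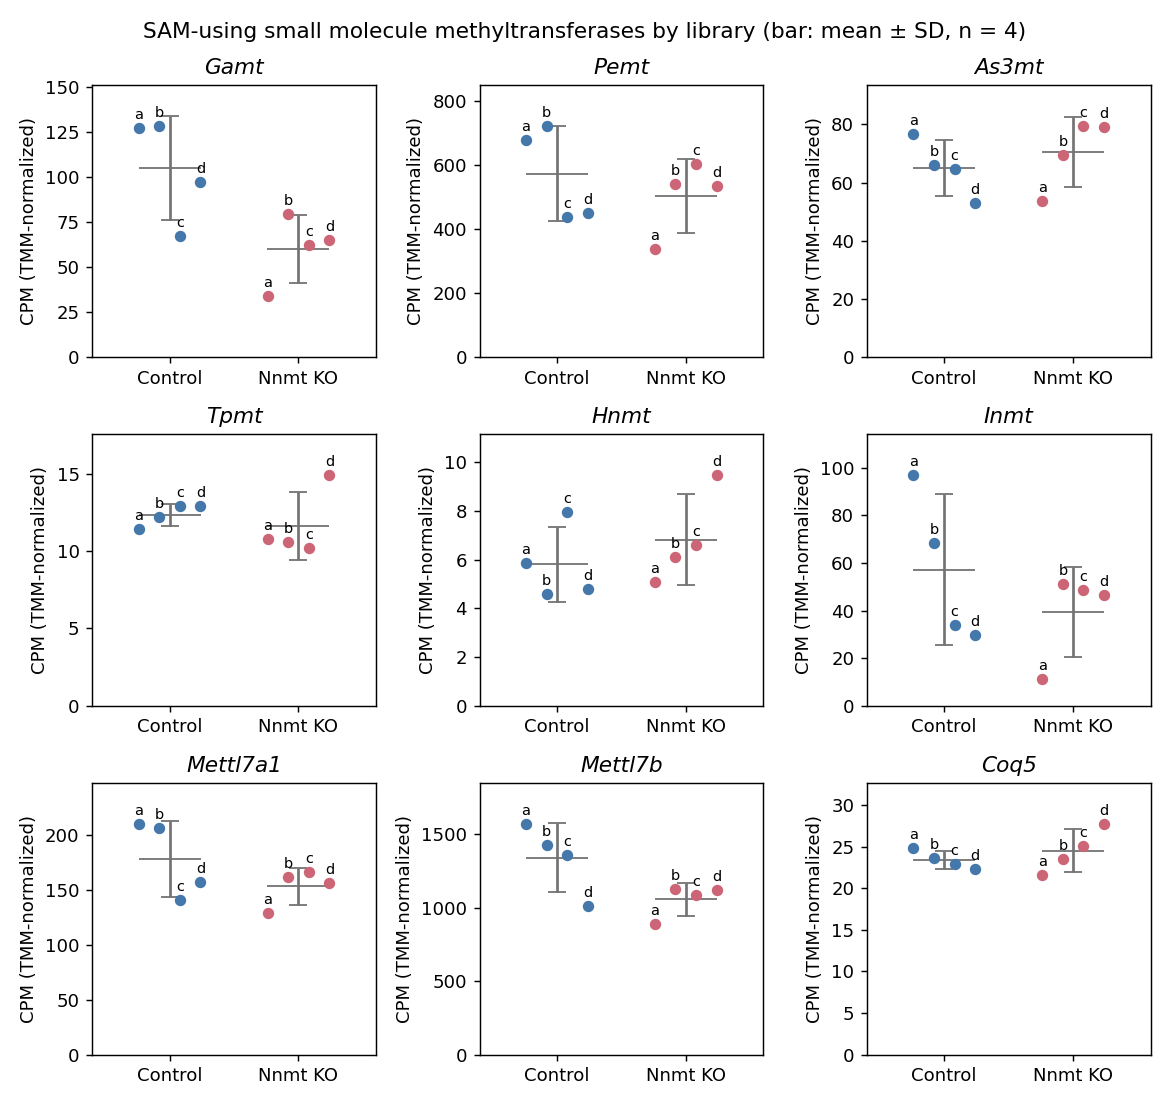
TMM-scaled CPM of the 9 methyltransferases in each of the 8 libraries, 1 panel a gene, with libraries lettered a to d (points), the group mean and its SD (bars, n = 4). Gamt overlapped through control c alone at 67.1 CPM, and Inmt in Nnmt KO a, at 11.3 CPM, lay far below the other 3 Nnmt KO libraries.

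Pemt and Mettl7b were the most abundant members. Pemt converts phosphatidylethanolamine to phosphatidylcholine, a route of particular use to a liver without dietary choline. Its level was 338, 541, 604 and 534 CPM in Nnmt KO libraries and 680, 721, 439 and 451 CPM in control libraries. Control libraries a and b were above all Nnmt KO libraries, whereas control c and d were below 3 of them. Pemt had a log2 fold change of −0.18 (SE 0.22, 95% interval −0.66 to 0.30) with an edgeR adjusted p of 0.768, and it was −0.03 without Nnmt KO a. The interval still holds a fall of 0.66 and a rise of 0.30. The Pemt locus is chr11:59970614-60046489 (minus strand).

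Around Pemt, 10 genes of phosphatidylethanolamine and phosphatidylcholine metabolism were tested, and 0 were higher and 1 lower at an unadjusted p under 0.05, with a median of 0.03. The lower gene was Chka, a choline kinase that opens the choline route to phosphatidylcholine. It had 28.7, 22, 20.5 and 23.5 CPM in Nnmt KO libraries and 38.5, 33.8, 46.4 and 36.6 CPM in control libraries. All Nnmt KO libraries were below all control libraries with TMM scaling, whereas with library size only Nnmt KO a, at 34.7 CPM, was above control b, at 29.6 CPM. The log2 fold change of Chka was −0.71 (SE 0.14), with an adjusted p of 0.0642 by edgeR and 0.000601 by DESeq2. By edgeR it was 0.0195 without Nnmt KO a and 0.269 with library size only. Pcyt1a, whose enzyme catalyses the next, rate-setting step of that route, had a log2 fold change of 0.04.

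Mettl7b encodes a membrane-bound enzyme that methylates small thiols. It had 890, 1130, 1090 and 1120 CPM in Nnmt KO libraries and 1570, 1430, 1360 and 1010 CPM in control libraries. Control d lay within the Nnmt KO range, and the other 3 control libraries lay above it. For Mettl7b the log2 fold change was −0.34 (SE 0.16, 95% interval −0.70 to 0.01), with an edgeR p of 0.0571 and an adjusted p of 0.41. Its p was under 0.05 in 3 of 12 other fits, and its adjusted p in none of them. Its locus, chr10:128958274-128960988 (minus strand), shares 9 exon bases with Itga7 on the plus strand, which averaged 10.4 CPM in control livers and 11.3 CPM in the others.

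The 250 bases before the start of Mettl7b (RefSeq, GRCm38.p6, chr10:128960989-128961238, minus strand) are shown because Mettl7b was the most abundant member. They held no match on either strand to the GC box, to the TATA box TATAAA, to the CCAAT box CCAAT, to the palindromic E-box CACGTG, or to the composite element TGATGNAA, so no letter is in capitals.
Mettl7b: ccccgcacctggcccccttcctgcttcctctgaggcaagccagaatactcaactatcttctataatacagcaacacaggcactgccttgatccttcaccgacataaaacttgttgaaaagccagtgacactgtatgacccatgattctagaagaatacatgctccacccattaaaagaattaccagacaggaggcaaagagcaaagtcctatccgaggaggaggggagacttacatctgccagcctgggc
Of all promoters of that length, 33.8% held a CCAAT box, 6.02% the E-box and 3.45% the composite element. Of the 8 members with an entry, 4 held a CCAAT box in any of their promoters and 0 held either of the other motifs. These 8 members had 9 promoters, the extra being that of Pemt, whereas the shares above count each promoter. Coq5 had no entry.

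Mettl7a1 encodes a relative of Mettl7b, likewise in membranes. Its level was 129, 162, 166 and 156 CPM in Nnmt KO libraries and 210, 206, 141 and 157 CPM in control libraries, and the groups overlapped. The log2 fold change was −0.22 (SE 0.15, 95% interval −0.55 to 0.11) with an edgeR adjusted p of 0.585. The coding sequences of its neighbours Mettl7a2 and Mettl7a3 were 94.7% and 94.3% identical to that of Mettl7a1, all 732 bases long. Reads from shared stretches could be assigned to the wrong gene, and the size of this effect on Mettl7a1 was not tested. Mettl7a2 averaged 0.683 CPM in control livers and 0.682 CPM after deletion of Nnmt. Mettl7a3 averaged 0.0718 and 0.0323 CPM, and Mettl7a1 178 and 153 CPM. The coding sequence of Mettl7a1 was 64.1% identical to that of Mettl7b. The Mettl7a1 locus is chr15:100304140-100328662 (plus strand).

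Tpmt methylates thiopurine drugs. Its level was 10.8, 10.6, 10.2 and 14.9 CPM in Nnmt KO libraries and 11.4, 12.2, 12.9 and 12.9 CPM in control libraries. Nnmt KO d was the highest of all 8 libraries, and the other 3 Nnmt KO libraries were the lowest. For Tpmt the log2 fold change was −0.09 (SE 0.14, 95% interval −0.40 to 0.23) with an edgeR adjusted p of 0.841, and it was −0.23 without Nnmt KO d. The Tpmt locus, chr13:47022482-47044737 (minus strand), overlaps Kdm1b on the plus strand with 0 shared exon bases.

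Of 16 listed genes of thiol and thiopurine metabolism, all tested, 1 was higher and 1 lower at an unadjusted p under 0.05, with a median log2 fold change of −0.07. Selenbp2, a close relative of the methanethiol oxidase Selenbp1, had 18.4, 30.3, 28.1 and 25.6 CPM in Nnmt KO libraries and 13.6, 16.2, 9.47 and 13.9 CPM in control libraries. The groups did not overlap. Its log2 fold change was 0.95 (SE 0.19), with an adjusted p of 0.0711 by edgeR and 0.000604 by DESeq2. By edgeR it was 0.044 with library size only, 0.0195 without Nnmt KO a, and up to 0.257 in the other fits. Mpst, a sulfurtransferase that yields hydrogen sulfide, had a log2 fold change of −0.41 with an edgeR adjusted p of 0.381.

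Inmt, which methylates tryptamine and other indole amines, had the widest spread of the 9 within a genotype. Its level was 11.3, 51.1, 48.5 and 46.7 CPM in Nnmt KO libraries and 96.8, 68.4, 33.9 and 29.6 CPM in control libraries. Nnmt KO a lay far below every other library, the other 3 Nnmt KO libraries lay within the control range, and control a and b lay above all others. The mean was 39.4 ± 18.8 CPM in Nnmt KO and 57.2 ± 31.6 CPM in control livers (SD, n = 4 each). Inmt had a log2 fold change of −0.54 (SE 0.46, 95% interval −1.54 to 0.47) with an edgeR adjusted p of 0.669. It was −0.23 without Nnmt KO a and −0.14 without control a. The SD of its log2 CPM within genotypes was 0.94, above that of 94.2% of all genes tested, where the median was 0.27. The Inmt locus is chr6:55170626-55175043 (minus strand).

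The 250 bases before the RefSeq start of Inmt (GRCm38.p6, chr6:55174991-55175240, minus strand) are shown because Inmt was the most variable member. The capitals mark the TATA box TATAAA.
Inmt: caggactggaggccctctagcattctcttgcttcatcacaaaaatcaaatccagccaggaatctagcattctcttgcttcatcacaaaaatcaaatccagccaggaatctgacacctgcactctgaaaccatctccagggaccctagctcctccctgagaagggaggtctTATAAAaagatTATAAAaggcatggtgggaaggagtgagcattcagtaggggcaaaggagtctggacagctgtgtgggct
It held 2 matches, both read in the direction of the gene, and was the only 1 of the 8 members with an entry to hold any, against 12.4% of all promoters of that length. Its GC content was 48%.

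Of the 4 listed indole amine genes, 2 were tested, and 1 was higher at an unadjusted p under 0.05. This was Ddc, the decarboxylase that makes tryptamine, with 44.2, 59.1, 59.1 and 70.5 CPM in Nnmt KO and 42.6, 39.9, 42.3 and 44.4 CPM in control libraries. Nnmt KO a lay within the control range and the other 3 Nnmt KO libraries above it. The log2 fold change of Ddc was 0.46, with an adjusted p of 0.173 by edgeR and 0.0508 by DESeq2. By edgeR it was 0.0377 without Nnmt KO a, and up to 0.374 in the other fits. The genes nearest to Inmt in gene-centred log2 CPM over the 8 libraries were Fam71e1, Homer2 and Hamp2. Their mean absolute difference was 0.14, 0.25 and 0.25, where the median over all genes was 0.71. They too lie below that median because they were picked as the nearest.

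Hnmt inactivates histamine by methylation and was 1 of the 2 lowest members per length. It had 5.09, 6.12, 6.58 and 9.46 CPM in Nnmt KO libraries and 5.87, 4.57, 7.97 and 4.8 CPM in control libraries, and the groups overlapped widely. For Hnmt the log2 fold change was 0.23 (SE 0.23, 95% interval −0.28 to 0.73) with an edgeR adjusted p of 0.719, and it was 0.03 without Nnmt KO d. The Hnmt locus is chr2:24002910-24049394 (minus strand). Of 8 listed histamine genes, 7 were tested, and 1 was higher at an unadjusted p under 0.05. It was Slc22a3, an organic cation transporter that carries histamine, with 14.4 ± 4.79 CPM in Nnmt KO and 8.03 ± 1.53 CPM in control livers (SD, n = 4 each). For Slc22a3 the log2 fold change was 0.84, with an adjusted p of 0.169 by edgeR and 0.0295 by DESeq2. By edgeR it was up to 0.455 in the other fits, and the groups overlapped. Of the 6 mast cell markers, 1 (Kit) passed the filter on low counts, and Mcpt4 had 0 counts in all libraries.

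As3mt methylates inorganic arsenic. Its level was 53.8, 69.5, 79.3 and 79.2 CPM in Nnmt KO libraries and 76.6, 65.9, 64.5 and 52.8 CPM in control libraries. The lowest values of both genotypes were within about 1 CPM of each other, and the groups overlapped over nearly their whole range. For As3mt the log2 fold change was 0.12 (SE 0.15, 95% interval −0.21 to 0.45) with an edgeR adjusted p of 0.787. None of the 8 listed genes of arsenic handling passed an unadjusted p of 0.05 in either direction, with a median of 0.01. The As3mt locus is chr19:46707458-46741099 (plus strand).

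Coq5, which methylates the ring of coenzyme Q in mitochondria, was the least variable member. Its level was 21.6, 23.5, 25.1 and 27.7 CPM in Nnmt KO libraries and 24.8, 23.6, 22.9 and 22.3 CPM in control libraries, and the groups overlapped. Coq5 had a log2 fold change of 0.07 (SE 0.11, 95% interval −0.17 to 0.30) with an edgeR adjusted p of 0.837. The SD of its log2 CPM within genotypes was 0.12, and only 8.67% of all genes tested had a smaller one. The Coq5 locus is chr5:115279666-115296972 (plus strand).

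Of 14 listed coenzyme Q genes, all tested, an unadjusted p under 0.05 was found for 1 with a higher level and for 2 with a lower level (Coq7 and Coq8b), with a median log2 fold change of −0.09. Coq8b, an atypical kinase of the pathway, had 37.1 ± 4.23 CPM in Nnmt KO and 46.6 ± 4.3 CPM in control livers (SD, n = 4 each), and its libraries did not overlap. Its log2 fold change was −0.33 with an edgeR adjusted p of 0.251. Coq10b, a coenzyme Q binding protein, had a log2 fold change of 0.60 with an edgeR adjusted p of 0.294, and that of Coq7, a hydroxylase of the pathway named after its values were seen, was −0.33 with an adjusted p of 0.367. Coq3, the other methyltransferase of this pathway, had a log2 fold change of 0.26 with an edgeR adjusted p of 0.412.

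Levels of different genes are compared only per kilobase of exon (RPKM). In control livers the order was Mettl7b at 1090 ± 197, Pemt at 272 ± 70.7, Gamt at 72.6 ± 20.1, Mettl7a1 at 68.7 ± 13.3, Inmt at 35.7 ± 19.7, As3mt at 20.2 ± 3.03, Coq5 at 7.71 ± 0.361, Tpmt at 3.36 ± 0.195 and Hnmt at 3.28 ± 0.878 RPKM (SD, n = 4). In Nnmt KO livers the same genes had 861 ± 93.4, 240 ± 54.9, 41.6 ± 13.1, 59.1 ± 6.44, 24.6 ± 11.8, 21.9 ± 3.74, 8.07 ± 0.851, 3.16 ± 0.597 and 3.85 ± 1.06 RPKM. The ranges did not overlap, in either genotype, between Mettl7b and Pemt, between Pemt and Mettl7a1, between As3mt and Coq5, or between Coq5 and Hnmt. The pairs Mettl7a1 and Gamt, Gamt and Inmt, Inmt and As3mt, and Hnmt and Tpmt overlapped in both genotypes, and their order is not resolved. Nnmt, at 88.1 ± 38.4 RPKM in control and 36.3 ± 14.7 RPKM in Nnmt KO livers, was of the order of Gamt and Mettl7a1.

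**Figure D3:**
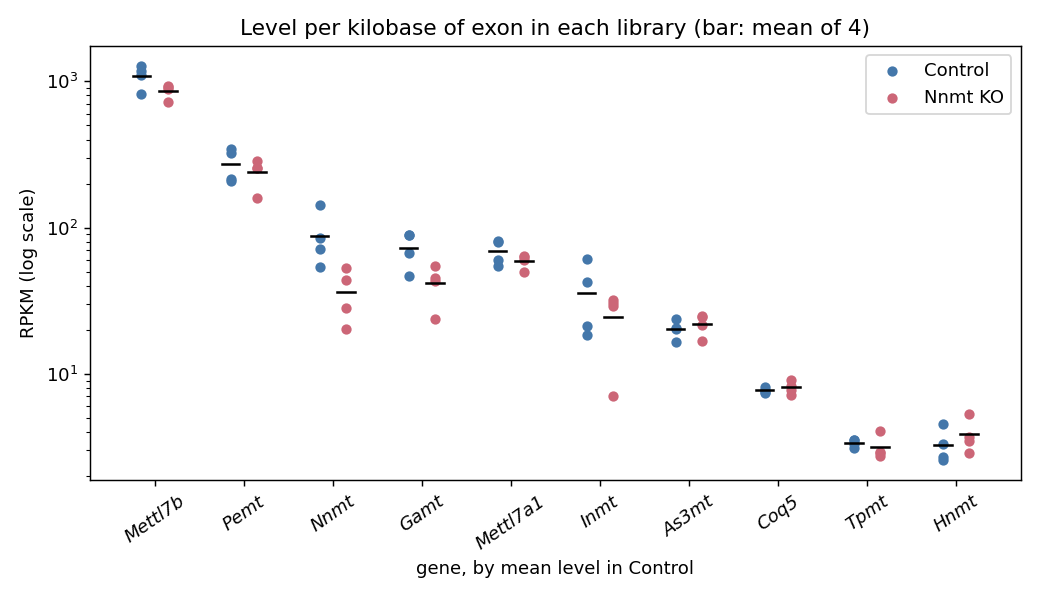
RPKM, on a log axis, of the 9 methyltransferases and Nnmt in the 4 control and 4 Nnmt KO libraries (points, with bars for the means). Mettl7b, at 1090 RPKM in control livers, lay above Pemt, and Hnmt and Tpmt, both near 3 RPKM, were the lowest.

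Of the summed RPKM of the 9 members and Nnmt, Mettl7b made up 61.5% to 71.3% in each library with the exon union as length, and 47.5% to 58.2% with the longest transcript. With the exon union, Nnmt made up 1.99% to 3.77% in Nnmt KO libraries and 3.67% to 7.51% in control libraries, ranges that overlapped. The summed RPKM of the 9 members was 994, 1360, 1350 and 1350 in the Nnmt KO livers, in library order, against 1870, 1750, 1480 and 1210 in the control livers. Control d was below 3 of the Nnmt KO libraries, and the other 3 control libraries were above all of them.

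With TMM scaling, most members ranked the libraries of a genotype alike in 2 ways. Both patterns were read from these same levels and not planned, so the shares of all genes beside them are no test. Nnmt KO a was the lowest Nnmt KO library for 8 of the 9 members, Tpmt being the exception, and for 33.2% of all genes tested. Control libraries a and b were both above c and d for 7 of the 9 and for 23.3% of all genes. Both patterns depended on the scaling. With library size only, Nnmt KO a was lowest for 4 of the 9, against 10.1% of all genes tested. With that scaling, controls a and b were both above c and d for 4 of the 9, against 7.4%. With TMM scaling, the low level in Nnmt KO a moved with its low hepatocyte and high stellate and cholangiocyte marker sums. Control c had the lowest hepatocyte marker sum of the controls, 76500 CPM with the same scaling. The part of these sums in the result was not tested.

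**Figure D4:**
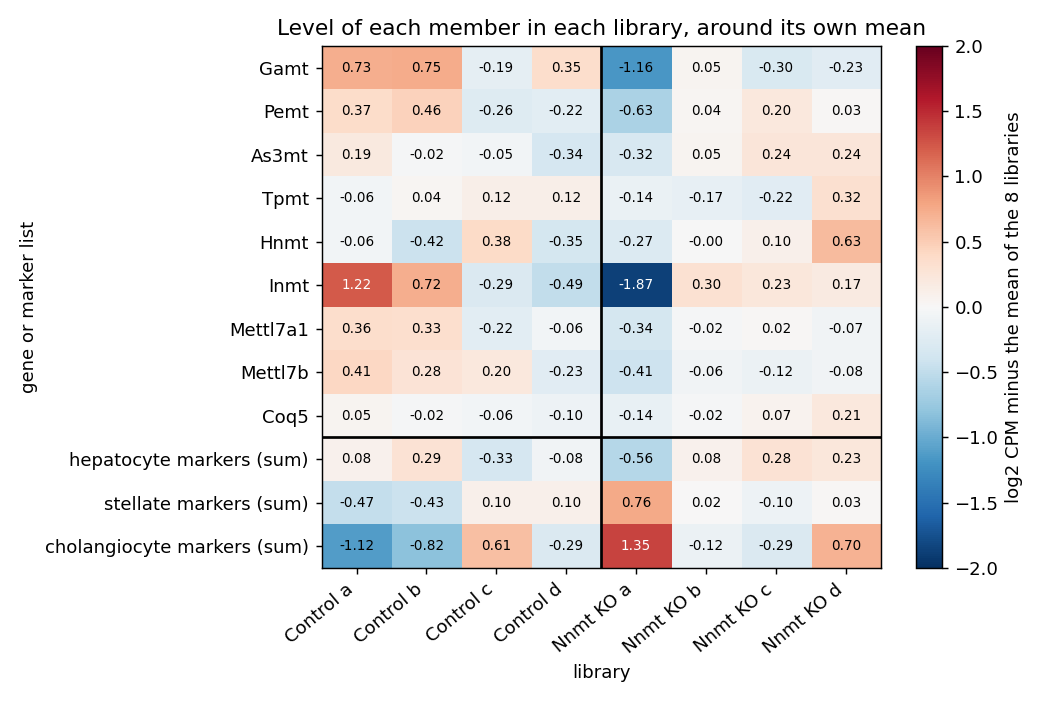
Log2 CPM of each member, and of the summed hepatocyte, stellate and cholangiocyte markers, in each library relative to its own mean over the 8 libraries, with colour and number giving the difference. Nnmt KO a is the lowest Nnmt KO library in 8 of the 9 genes, and among the members Gamt and Inmt show the widest range.

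Other methyltransferases that use SAM on small molecules were set beside the members, and Pnmt and Asmt among them had 0 counts in all libraries. Gnmt, which methylates glycine and is named for its abundance, chosen after its values were seen, had 910 ± 352 CPM in Nnmt KO and 1420 ± 482 CPM in control livers (SD, n = 4 each). The log2 difference of Gnmt was −0.64 (SE 0.33) with an edgeR adjusted p of 0.45. Its level per length was 1180 RPKM in control livers, close to that of Mettl7b.

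The 10 genes of SAM synthesis and SAH removal had a median log2 fold change of 0.00, with 1 higher and 0 lower at an unadjusted p under 0.05. Ahcyl2, a relative of the SAH hydrolase Ahcy, had 18.2, 16.4, 16.6 and 18.2 CPM in Nnmt KO libraries and 13.6, 14.1, 13.3 and 14.6 CPM in control libraries, and the groups did not overlap. Its log2 fold change was 0.32, with an adjusted p of 0.211 by edgeR and 0.0494 by DESeq2. By edgeR it was up to 0.49 in the other fits. Mat1a, the SAM synthetase of liver, had a log2 fold change of 0.26 with an edgeR adjusted p of 0.735, and that of Ahcy was 0.02. Over all 9 lists, Nnmt left aside, an unadjusted p under 0.05 was found among the 78 tested genes for 5 with a lower and 6 with a higher level, 14.1% against 12.6% of all genes tested. The lower count was 2 without control b, and the higher count 10 without Nnmt KO a. Over all genes, 1582 of 15579 passed that p in either direction without control b, and 2052 of 15477 without Nnmt KO a. None of the 78 passed an adjusted p of 0.05 by edgeR with all libraries and TMM. With library size only there was 1, Selenbp2, where 22 of all 15291 genes passed. Without Nnmt KO a there were 3, Chka, Selenbp2 and Ddc, where 149 of all 15477 genes passed. By DESeq2 there were 4, Ahcyl2, Chka, Selenbp2 and Slc22a3, where 3.56% of all genes passed.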

How the data were processed

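RNA-seq of 8 livers was deposited by the authors as 1 table of whole-number counts per gene, not normalized. The sources name HISAT2, StringTie and build mm10. Versions, annotation and strand setting are not given in the sources used here. The methods and the labels name different library kits. The table has the layout of StringTie's conversion from coverage to counts, so absolute counts may carry a common factor. Because no mouse is named, libraries were grouped by column name.

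Genes were filtered with filterByExpr (minimum count 10), scaled by TMM and tested with edgeR 4.0.16 (quasi-likelihood test, R 4.3.3), with Benjamini-Hochberg adjustment over 15291 genes. Alternatives were DESeq2 1.42.0, DESeq2 size factors, library size only, no filter, and leaving out each library. Single genes also had a two-sided exact permutation test of mean CPM over 70 assignments. The test was checked on simulated data. RPKM is TMM-scaled CPM per kilobase of exon union.

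Named genes were every member, Nnmt, from each pathway list the genes past an adjusted p of 0.05 or otherwise the 2 with the smallest unadjusted p under 0.05, and the 3 genes nearest in pattern to each of the 2 members with the largest fold change. Gatm, Pcyt1a, Selenbp1, Coq3, Coq7, Mat1a, Ahcy, Gnmt, Mettl7a2 and Mettl7a3 lie outside that rule and were named after their values were seen. Genes that overlap a member's locus, some cell markers and genes without counts were also named. The members and lists were chosen with earlier results of these data known. Nothing in the sources used here says how the libraries relate beyond separate mouse numbers in the titles, and p-values measure the spread between these libraries. Proteins were not analysed here. A result among the pathway genes is not reported here.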

Additional observations from a re-analysis of the deposited data

Results flagged for a closer look

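Inmt was flagged because Nnmt KO a, at 11.3 CPM, lay far from the other 3 Nnmt KO libraries, at 46.7 to 51.1 CPM, a gap of 0.887 of the range of the 4. Tpmt was flagged because Nnmt KO d, at 14.9 CPM, lay above the other 3, at 10.2 to 10.8 CPM, a gap of 0.857 of the range. Such a gap was looked for in 20 groups of 4 libraries, where chance gives about 1. Nnmt KO a was also the library with the highest TMM factor and, after that scaling, the lowest hepatocyte marker sum. The part of either in the Inmt value was not tested.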

How the results depend on the processing

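No paired analysis was possible because the columns of the table carry no mouse numbers and the sources used here name no pairs. Nnmt KO and control livers came from different mice and were compared as unpaired groups. In all 12 alternatives, none of the 9 members passed an adjusted p of 0.05, and 6 were lower and 3 higher or at 0. Gamt stayed under an unadjusted p of 0.05 in 12 of 12, with an adjusted p from 0.0591 (DESeq2) to 0.566 (without control a) and a log2 fold change from −0.97 to −0.61 when each library was left out. The count of members lower at that p was 1, but 2 with library size only and 2 with DESeq2, and 1 to 2 with each library left out, the second being Mettl7b in each case. Nnmt had a log2 fold change of −1.28 by edgeR and by DESeq2, where its adjusted p was 0.00458, and −1.52 to −0.94 with each library left out. Among pathway genes, 5 were lower and 6 higher at an unadjusted p under 0.05. With each library left out these counts ran from 2 (without control b) to 7 and from 4 to 10 (without Nnmt KO a). Over all genes, edgeR called 49 at an adjusted p under 0.05, 6 to 149 with a library left out (149 without Nnmt KO a), 30 with DESeq2 size factors, 22 with library size only and 8 with no filter, and DESeq2 called 513. Depth was far above 3 counts for every member, so precision rests on 4 libraries a genotype. With the longest transcript as length, Pemt had 571 RPKM and As3mt 37.4 RPKM in control livers, against 272 and 20.2 RPKM with the exon union. These differences come from the lengths used, 1003 against 2104 bases for Pemt and 1736 against 3212 bases for As3mt. The cause of the shifts between fits was not tested.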
